A study of Mus musculus with 9 samples.

Results

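The small nuclear, nucleolar and cytoplasmic RNAs of activated CD8+ T cells were compared between 3 antibody treatments given with an antigenic peptide. Members were the transcript rows of a whole-transcript mouse array that name 1 gene and whose symbol begins with Snora, Snord, Scarna, Rnu, Rny, Rn5s, Rn7s, Rn4.5s, Rmrp, Rpph1 or Terc. They were 118 of the 31089 rows that name 1 gene, and they name 98 RNAs. Because 21 of these rows share all 9 values with another of them, the 118 rows hold 104 distinct signals. By class they comprised 57 rows of C/D box small nucleolar RNAs (snoRNAs), 19 of H/ACA box snoRNAs, 6 of small Cajal body RNAs (scaRNAs), 16 of spliceosomal small nuclear RNAs (snRNAs) and 8 of 5S ribosomal RNA. There were 4 rows of Y RNAs, 2 of 7SK RNA, 2 of 7SL RNA and 1 each of 4.5S RNA, the RNase MRP RNA Rmrp, the RNase P RNA Rpph1 and the telomerase RNA Terc. A further 47 rows that name a small RNA together with another gene were left out.

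All 9 mice were naive congenic recipients of transferred Thy1.1+ CD8+ T cells of pmel1 mice, which carry a T cell receptor for the melanocyte antigen gp100. Each received 100 µg of the hgp100 peptide intravenously with 400 µg of antibody. The combination group had 200 µg of the agonist anti-CD27 antibody AT124, 100 µg of the anti-PD-1 antibody RMP1-14 and 100 µg of the anti-PD-L1 antibody 10F.9G2. The anti-CD27 group had AT124 alone, and the anti-PD-1/L1 group had RMP1-14 with 10F.9G2, each made up with 200 µg of isotype control antibodies. There were 3 mice in each group and 1 array from each mouse. Thy1.1+ CD8+ cells were taken from the spleen on day 4 by magnetic negative selection and sorting to over 99% purity, so the values describe transferred cells of a single receptor in hosts that keep their own lymphocytes. No group with peptide and isotype antibodies alone was analysed here. RNA came from RNeasy kits with a step that removes genomic DNA, and how much of the shortest RNAs these columns kept was not measured.

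As background, C/D box and H/ACA box snoRNAs guide ribose methylation and pseudouridylation of ribosomal RNA, and most mammalian ones are cut from introns of host genes, while scaRNAs guide the same modifications on snRNAs in Cajal bodies. The snRNAs form the core of the spliceosome, and the Y RNAs bind the Ro60 protein. 5S, 4.5S, 7SL, 7SK, U6, Y, RNase P and RNase MRP RNAs are made by RNA polymerase III, the others described here mostly by RNA polymerase II or by trimming of introns. T cells that begin to divide are known to make more ribosomes, which draws on many of these RNAs. The rows report hybridisation signal, and a probe can bind a precursor or a host intron as well as the mature RNA. In such bulk samples fewer cells of a type and less RNA per cell cannot be told apart.

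The deposited values are log2 intensities, and every difference below is a difference of group means on that scale, with the standard error (SE) of the fit across all 31089 rows. The array's own control probe sets differed between groups. The mean of the 23 background control sets, which match no mouse transcript, was 3.25 ± 0.04 in combination mice, 3.27 ± 0.06 in anti-CD27 mice and 4.06 ± 0.08 in anti-PD-1/L1 mice (SD, n = 3 each). The mean of the 8 bacterial and phage control sets was 8.60 ± 0.11 in combination mice, 8.60 ± 0.02 in anti-CD27 mice and 9.75 ± 0.12 in anti-PD-1/L1 mice. The 1324 positive control sets went the other way, with 6.81 ± 0.04 in combination mice, 6.70 ± 0.02 in anti-CD27 mice and 5.75 ± 0.19 in anti-PD-1/L1 mice. The 155 ERCC sets averaged 2.84 ± 0.03 in combination mice, 2.83 ± 0.03 in anti-CD27 mice and 3.58 ± 0.05 in anti-PD-1/L1 mice. The 5222 negative control sets averaged 2.78 ± 0.07 in combination mice, 2.92 ± 0.06 in anti-CD27 mice and 2.77 ± 0.05 in anti-PD-1/L1 mice, with combination arrays overlapping anti-PD-1/L1 arrays (difference 0.01) and anti-CD27 arrays above them (difference 0.15). For each of the background, bacterial and phage, positive and ERCC kinds, the combination and anti-CD27 arrays did not overlap the anti-PD-1/L1 arrays, and the exact two-sided permutation p was 0.1, the smallest that 3 against 3 arrays allow. The median of the differences of all rows was -0.26 both for combination minus anti-PD-1/L1 and for anti-CD27 minus anti-PD-1/L1. CD8 T cell markers were present on all arrays: the mean of 5 markers ranged between 10.17 and 10.28 in combination mice, 10.35 and 10.37 in anti-CD27 mice and 8.71 and 9.33 in anti-PD-1/L1 mice. The 4 B cell markers measured averaged 3.05 to 3.10 in combination mice, 3.14 to 3.20 in anti-CD27 mice and 3.58 to 3.59 in anti-PD-1/L1 mice. The 5 myeloid markers averaged 2.93 to 3.06 in combination mice, 2.86 to 3.12 in anti-CD27 mice and 3.24 to 3.29 in anti-PD-1/L1 mice. The part of other cells in the results was not tested.

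A row was taken as above background on an array where it exceeded the 95th percentile of the background control sets of that array. This limit is high, because the background sets richest in G and C are bright. Of the 104 signals, 46 were above it on all combination arrays, 47 on all anti-CD27 arrays and 43 on all anti-PD-1/L1 arrays, and 48 were above it on no array. Small RNA rows described below that were above it on no array are named as such, and their values are given as deposited. Rows of host genes and protein partners are not marked in this way. The mean limit was 6.83 in combination mice, 6.935 in anti-CD27 mice and 8.27 in anti-PD-1/L1 mice. Among the partners named below, Nolc1, Naf1, Gemin5, Tgs1, Srp9, Tert and Ro60, for example, had means below it in all groups.

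Few small RNAs passed the test when combination mice were compared with anti-CD27 mice. For combination minus anti-CD27, 1 of the 118 rows rose (adjusted p under 0.05, Benjamini-Hochberg over all rows tested), against a background of 1.24% of all rows, and 2 fell, against 0.505% of all rows. The other 115 did not pass the test. The median difference of the 118 rows was -0.10, beside 0.00 for all rows tested. With calls set aside, the 3 arrays of each group did not overlap for 4 rows that were higher in combination mice, against 12.0% of all rows, and for 19 rows that were lower, against 8.45% of all rows.

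The largest fall was in Rn4.5s, the 4.5S RNA of rodents, a short RNA polymerase III transcript. Its values were 8.71, 8.50 and 8.02 in combination mice, 9.92, 9.51 and 9.40 in anti-CD27 mice and 9.66, 9.64 and 9.41 in anti-PD-1/L1 mice. All 3 combination arrays lay below the 6 others, and the anti-CD27 and anti-PD-1/L1 arrays overlapped. It fell in combination mice in both of their comparisons, by -1.20 ± 0.19 against anti-CD27 mice (adjusted p = 0.0181) and -1.16 ± 0.19 against anti-PD-1/L1 mice (adjusted p = 0.000613). The difference of anti-CD27 minus anti-PD-1/L1 was 0.04 ± 0.19 (adjusted p = 0.866). The call against anti-CD27 mice was lost when anti-CD27 replicate 1 (adjusted p = 0.078), anti-CD27 replicate 2 (0.0709) or combination replicate 2 (0.0722) was left out. Of the classes of small RNA, 4.5S RNA was the only one with no row called in anti-CD27 minus anti-PD-1/L1.

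Scarna2, which guides methylation of the U2 snRNA, was the other RNA that fell. It gave 9.80, 9.72 and 9.62 in combination mice, 10.22, 10.21 and 10.10 in anti-CD27 mice and 10.89, 10.72 and 11.03 in anti-PD-1/L1 mice. The 3 groups did not overlap, with combination mice lowest and anti-PD-1/L1 mice highest. The difference of combination minus anti-CD27 was -0.46 ± 0.09 (adjusted p = 0.037). Leaving out any 1 of the 6 arrays compared raised the adjusted p to between 0.0799 and 0.172 and ended the call. The difference stayed between -0.51 and -0.42. Calls over all rows also dropped in these fits, from 544 to between 171 and 295.

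Snord45b, a C/D box guide of ribosomal RNA methylation, was the 1 RNA that rose. Its values were 7.0, 6.92 and 6.96 in combination mice, 6.07, 6.54 and 6.32 in anti-CD27 mice and 9.11, 8.98 and 9.37 in anti-PD-1/L1 mice. The combination arrays lay above the anti-CD27 arrays, with both groups below the anti-PD-1/L1 arrays. The difference of combination minus anti-CD27 was 0.65 ± 0.13 (adjusted p = 0.0488). No anti-CD27 array was above the background limit, which makes Snord45b at least 1.02-fold higher in combination mice. The call was lost without any 1 array other than anti-PD-1/L1 replicate 3, with adjusted p between 0.0501 and 0.173.

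The remaining classes had no call in this comparison by limma. An unadjusted limma p under 0.05 was found for 3 of 19 H/ACA box rows, 2 of 2 7SK rows and the Rpph1 row. The same held for 2984 of all 31089 rows. The row with the largest difference in each class was as follows. Snora20, an H/ACA box snoRNA at 2.58 in combination mice and 3.17 in anti-CD27 mice and above background on no array, differed by -0.59 ± 0.14 (adjusted p = 0.1). It was called with array weights per group (adjusted p = 0.0206) or with the background controls as a covariate (0.038). Rpph1, the RNA subunit of the enzyme that trims the leader of tRNAs, differed by -0.35 ± 0.09 (adjusted p = 0.15), with no overlap between the groups. It was called when array weights per group were used (adjusted p = 0.00886) or only the 6 arrays were fitted (0.0254), and without anti-PD-1/L1 replicate 3 (0.0243). The more different of the 2 rows for 7SK RNA, which holds the elongation factor P-TEFb inactive, differed by -0.14 ± 0.05 (adjusted p = 0.312), also with no overlap. It too was called with array weights per group (adjusted p = 0.0285) or with the 6 arrays alone (0.0355). Differences in the Y RNA Rny3 (-0.37), the second row of the U6 snRNA (-0.34, above background on 1 anti-CD27 array and on no other), 5S RNA (-0.19), Rmrp (-0.19), 7SL RNA (-0.09) and Terc (-0.08) had adjusted p between 0.694 and 1.

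**Figure D1:**
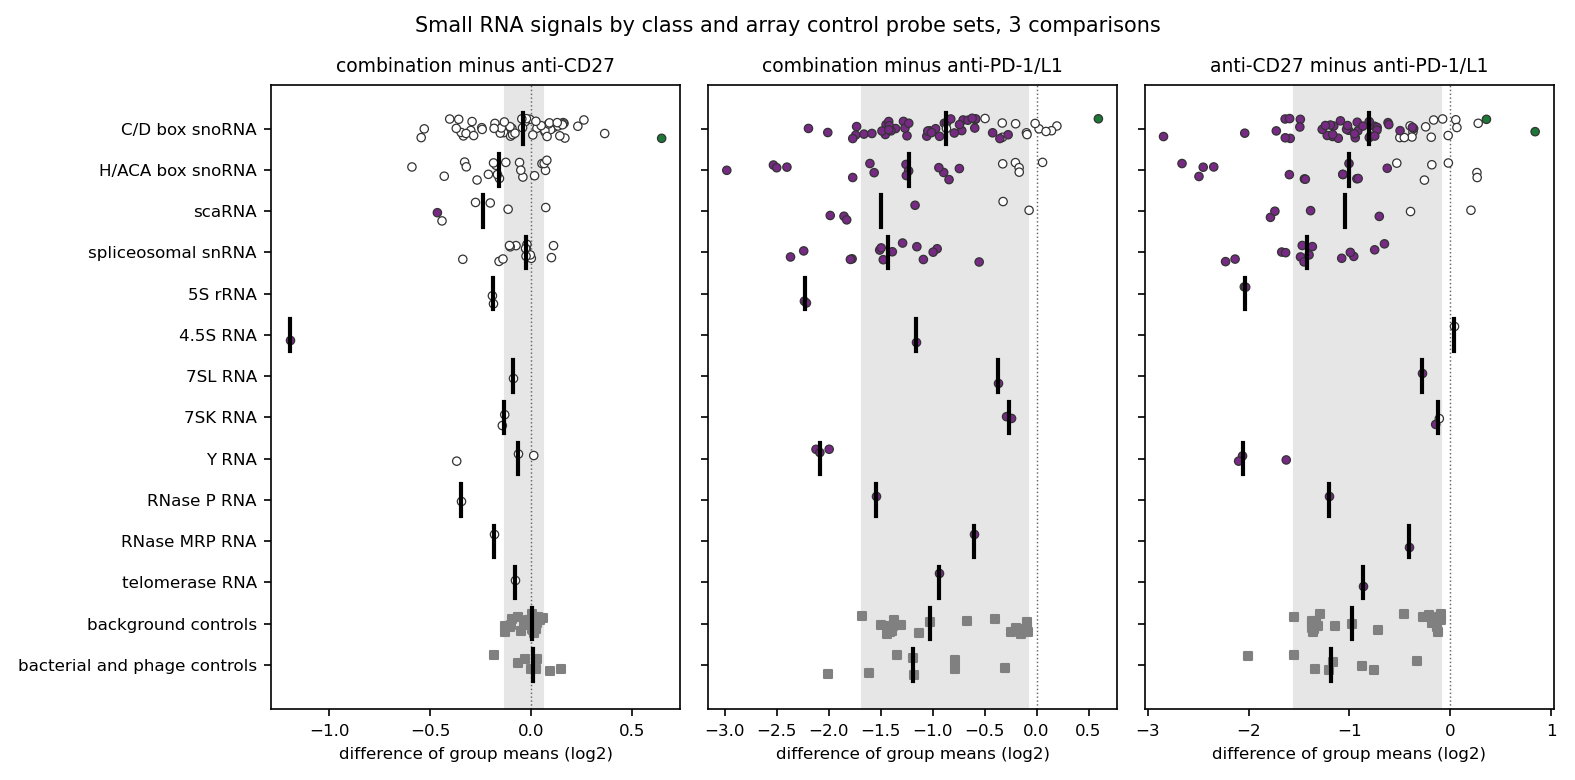
Difference of group means (log2) of each of the 104 small RNA signals by class, with the array's control probe sets in the last rows, for the 3 comparisons; each panel has its own horizontal range. Filled points passed the test (purple lower, green higher), vertical bars are medians of the points in that row, and the grey band spans the 23 background control sets. Against anti-PD-1/L1, 74 of 104 signals of the combination comparison and 69 of 104 of the anti-CD27 comparison lie within the band.

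Against PD-1 and PD-L1 blockade alone, most small RNAs were lower after either anti-CD27 regimen. For combination minus anti-PD-1/L1, 98 of the 118 rows fell, against 53.3% of all rows, and 1 rose, against 18.9% of all rows. The median difference was -1.12, beside -0.26 for all rows. For anti-CD27 minus anti-PD-1/L1, 93 rows fell, against 53.6% of all rows, and 2 rose, against 17.1%, with a median of -1.0 beside -0.26. Both comparisons use the same 3 anti-PD-1/L1 arrays. The arrays did not overlap, with the combination lower, for 95 rows (54.6% of all rows), and with anti-CD27 lower for 91 rows (55.1% of all rows). Among the 15544 rows with the higher means over all 9 arrays, 95 of 103 small RNA rows fell in combination mice, against 40.9% of them all, with medians of -1.25 and -0.04. Among the same rows, 90 of 103 fell in anti-CD27 mice, against 41.5% of rows, with medians of -1.08 and -0.06.

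The background and the bacterial and phage control sets shifted in the same direction as most members, the positive sets went the other way, and the negative sets did not fall. The differences of the 23 background control sets lay between -1.68 and -0.09 for combination minus anti-PD-1/L1 and between -1.55 and -0.09 for anti-CD27 minus anti-PD-1/L1. Of the 104 signals, 74 lay inside the first range, 22 below it and 8 above it, and 69, 23 and 12 did so for the second. The 8 bacterial and phage sets spanned -2.00 to -0.30 and -2.00 to -0.34, and 12 signals lay below that range in each comparison. Background sets with few G and C bases moved little, -0.09 for combination minus anti-PD-1/L1 in the set with 6 of them, and those with 16 to 24 moved by -1.31 to -1.50. Neither treatment with anti-CD27 overlapped anti-PD-1/L1 in these controls, so control level and treatment cannot be told apart in these 9 arrays. For combination minus anti-CD27, where the background sets spanned -0.13 to 0.06, 34 of the 104 signals lay inside, 45 below and 25 above.

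**Figure D2:**
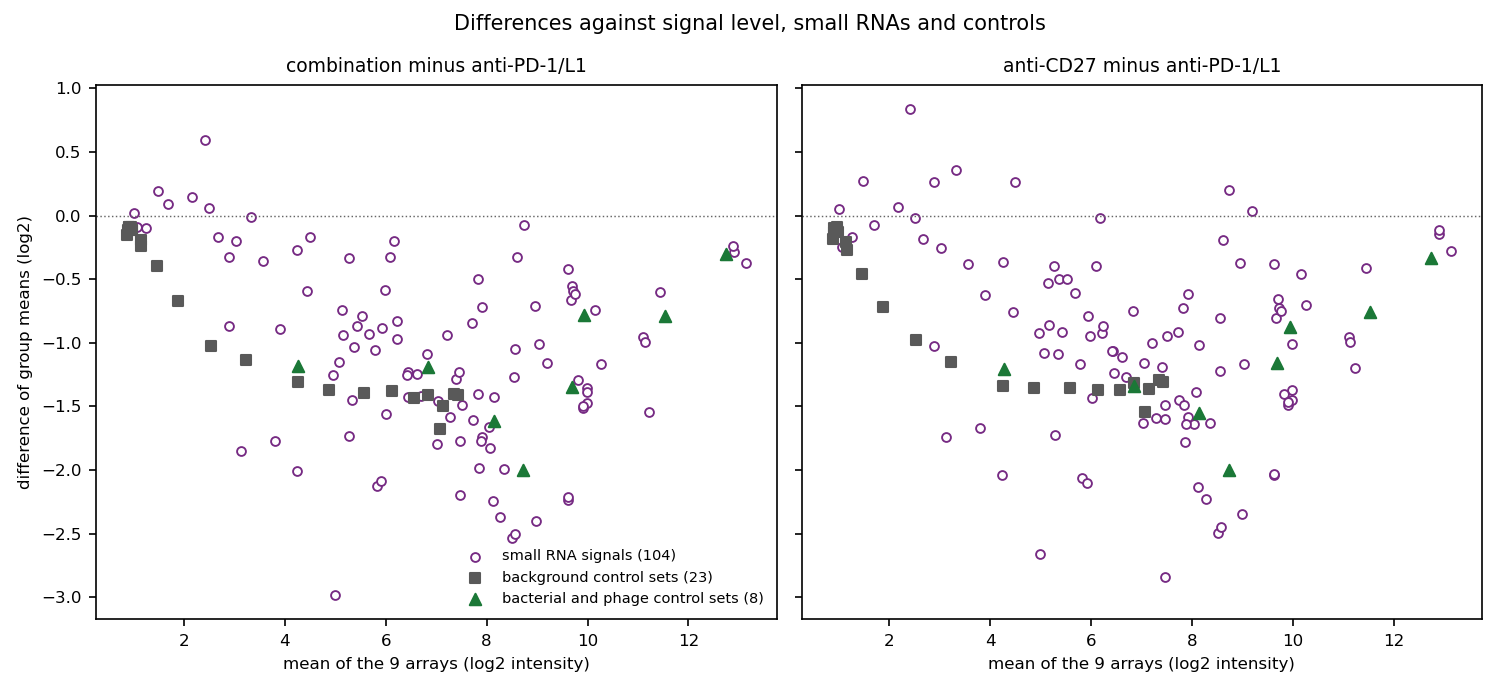
Difference of group means (log2) against the mean of the 9 arrays (log2 intensity) for the 104 small RNA signals, the 23 background control sets and the 8 bacterial and phage control sets, for combination and for anti-CD27, each minus anti-PD-1/L1. The small RNAs spread around the controls, with values near 0 at both ends of the intensity scale; at the bright end the phage control set differs by -0.30 and the 2 rows of 7SK by -0.29 and -0.24 for combination minus anti-PD-1/L1.

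The signals also shared an order of arrays within groups. Of the 104 signals, 81 were lowest on anti-PD-1/L1 replicate 2 and 69 were highest on replicate 3, against 10707 and 11934 of the 31089 rows (a tie counts for the lower replicate number). On those 3 arrays in order of replicate number the background controls averaged 4.02, 4.01 and 4.16, and the bacterial and phage controls 9.85, 9.62 and 9.79. In the anti-CD27 group 78 signals were highest on replicate 2, against 11934 of all rows, and the background controls there averaged 3.32, against 3.29 on replicate 1 and 3.20 on replicate 3. The bacterial and phage controls of that group averaged 8.58, 8.61 and 8.61 in order of replicate number. In the combination group 61 signals were highest on replicate 1, against 11277 of all rows. There the bacterial and phage controls averaged 8.72, 8.51 and 8.57 in order of replicate number, highest on replicate 1, and the background controls 3.24, 3.22 and 3.29, highest on replicate 3. The part of the controls in these orders was not tested. The median SD over small RNA signals was 0.15 in combination mice, 0.20 in anti-CD27 mice and 0.37 in anti-PD-1/L1 mice, beside 0.07, 0.06 and 0.14 for all rows. All rows were not matched to the small RNAs by signal level. They include rows with the same value on all 3 arrays of a group, and no member was among those.

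C/D box snoRNAs fell in 44 of 57 rows for combination minus anti-PD-1/L1 (median -0.83), against 53.3% of all rows. They fell in 42 of 57 for anti-CD27 minus anti-PD-1/L1 (median -0.79), against 53.6% of all rows. Snord45b, given above, had the largest falls, with differences of -2.19 ± 0.13 in combination mice (adjusted p = 2.33e-06) and -2.84 ± 0.13 in anti-CD27 mice (adjusted p = 5.12e-07). On the deposited values, Snord45b in anti-CD27 mice is at least 4.65-fold lower than in anti-PD-1/L1 mice once the background limit is set for the anti-CD27 arrays. The mean limit itself was 6.935 in anti-CD27 mice and 8.27 in anti-PD-1/L1 mice, a difference of -1.34. The bound makes no allowance for that difference. Snord13, the U13 snoRNA, which takes part in modification of the small ribosomal subunit RNA, gave 7.48, 7.18 and 7.17 in combination mice, 7.14, 7.75 and 7.41 in anti-CD27 mice and 9.37, 8.61 and 9.08 in anti-PD-1/L1 mice in the first of its 2 rows. Its groups did not overlap with anti-PD-1/L1, and it fell, with differences of -1.74 ± 0.21 in combination mice (adjusted p = 0.00011) and -1.59 ± 0.21 in anti-CD27 mice (adjusted p = 0.000202). Snord16a, a guide encoded in the ribosomal protein gene Rpl4, gave 7.63, 7.30 and 7.52 in combination mice, 7.37, 7.87 and 7.29 in anti-CD27 mice and 9.08, 8.58 and 9.78 in anti-PD-1/L1 mice. It fell in both comparisons, with differences of -1.66 ± 0.28 in combination mice and -1.64 ± 0.28 in anti-CD27 mice.

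The U3 snoRNA, which is needed for the first cleavages of the ribosomal RNA precursor, was read by several rows. The first row of Rnu3a gave 7.48, 7.47 and 7.23 in combination mice, 7.25, 7.51 and 7.16 in anti-CD27 mice and 8.52, 8.59 and 9.27 in anti-PD-1/L1 mice. Rnu3a fell here, with differences of -1.40 ± 0.19 in combination mice and -1.49 ± 0.19 in anti-CD27 mice. The Rnu3b rows shared most of their values, and that of Rnu3b1, identical in 3 rows, gave 9.52, 9.56 and 9.62 in combination mice, 9.49, 9.62 and 9.19 in anti-CD27 mice and 10.02, 9.85 and 10.61 in anti-PD-1/L1 mice. It fell too, with differences of -0.59 ± 0.19 in combination mice (adjusted p = 0.0186) and -0.73 ± 0.19 in anti-CD27 mice (adjusted p = 0.00737), and had all anti-PD-1/L1 arrays above the others. A like row of Rnu3b2 lost its call against anti-PD-1/L1 without combination replicate 1 (adjusted p = 0.0585) or replicate 2 (0.0517). Because U3 copies are near-identical in sequence, the rows may share hybridising RNA. Snord118, the U8 snoRNA needed for large-subunit RNAs, had 2 rows that did not do the same. The first, above background on no array, gave 3.53, 3.50 and 3.69 in combination mice, 3.67, 3.71 and 3.25 in anti-CD27 mice and 5.33, 4.95 and 6.46 in anti-PD-1/L1 mice, with differences of -2.01 ± 0.33 in combination mice (adjusted p = 0.000639) and -2.04 ± 0.33 in anti-CD27 mice (adjusted p = 0.000628). The second, also above background on no array and with means of 1.09 in combination mice, 0.93 in anti-CD27 mice and 1.18 in anti-PD-1/L1 mice, differed by -0.09 in combination mice and -0.25 in anti-CD27 mice and passed in neither.

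The rises were in dim rows. Snord37, a C/D box snoRNA in an intron of Eef2, gave 2.79, 2.43 and 2.38 in combination mice, 2.43, 2.82 and 3.09 in anti-CD27 mice and 1.78, 2.15 and 1.88 in anti-PD-1/L1 mice. The anti-PD-1/L1 arrays lay below the 6 others, and the difference was 0.59 ± 0.18 for combination (adjusted p = 0.0159) and 0.84 ± 0.18 for anti-CD27 (adjusted p = 0.00297). No array was above the background limit, and the combination call was lost without combination replicate 1 (adjusted p = 0.0614) or anti-PD-1/L1 replicate 1 (0.0543). Snord92, also above the limit on no array, gave 3.34, 3.21 and 3.04 in combination mice, 3.59, 3.46 and 3.65 in anti-CD27 mice and 3.43, 3.02 and 3.18 in anti-PD-1/L1 mice, rose by 0.36 in anti-CD27 mice (adjusted p = 0.0224) and differed by -0.01 in combination mice (adjusted p = 0.919). That call was lost without anti-CD27 replicate 1 or 3 or anti-PD-1/L1 replicate 2 or 3, with adjusted p between 0.0581 and 0.0751.

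Some bright C/D box snoRNAs did not pass against anti-PD-1/L1. Snord110 differed by -0.33 ± 0.32 in combination mice (adjusted p = 0.369) and -0.19 ± 0.32 in anti-CD27 mice (adjusted p = 0.603), with overlapping arrays in both. It was picked after its values were seen, as a bright row with a small difference, and gave 8.53, 8.29 and 8.52 in combination mice, 8.31, 8.94 and 8.51 in anti-CD27 mice and 9.32, 7.95 and 9.06 in anti-PD-1/L1 mice. Among scaRNAs the same held for Scarna17, likewise picked, which gave 8.73, 8.65 and 8.48 in combination mice, 8.95, 9.01 and 8.73 in anti-CD27 mice and 9.12, 8.26 and 8.70 in anti-PD-1/L1 mice. Its differences were -0.07 ± 0.19 in combination mice (adjusted p = 0.741) and 0.20 ± 0.19 in anti-CD27 mice (adjusted p = 0.352), above the range of the background controls in both comparisons.

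H/ACA box snoRNAs fell in 14 of 19 rows for combination minus anti-PD-1/L1 (median -1.23), against 53.3% of all rows. They fell in 13 of 19 for anti-CD27 minus anti-PD-1/L1 (median -1.0), against 53.6% of all rows. Snora73a and Snora73b, copies of the U17 RNA, which acts in ribosomal RNA cleavage and not as a modification guide, were the brightest of the large falls. Snora73a gave 7.85, 7.58 and 7.73 in combination mice, 7.44, 8.23 and 7.64 in anti-CD27 mice and 9.92, 10.03 and 10.70 in anti-PD-1/L1 mice. It fell, with differences of -2.50 ± 0.24 in combination mice (adjusted p = 3.37e-05) and -2.45 ± 0.24 in anti-CD27 mice (adjusted p = 4.33e-05). The 2 rows of Snora73b fell, with differences of -2.40 and -2.53 in combination mice and of -2.34 and -2.49 in anti-CD27 mice, all beyond the bacterial and phage range. The near-identical copies may share hybridising RNA.

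Snora69, encoded in the ribosomal protein gene Rpl39, had the largest difference of all members but was above background on no array. It gave 3.90, 3.93 and 3.85 in combination mice, 4.36, 4.09 and 4.19 in anti-CD27 mice and 6.04, 6.50 and 8.08 in anti-PD-1/L1 mice, so the spread among anti-PD-1/L1 mice was wide while no array overlapped. Snora69 fell, with differences of -2.98 ± 0.43 in combination mice (adjusted p = 0.000286) and -2.66 ± 0.43 in anti-CD27 mice (adjusted p = 0.000593). Snora21, a guide of large-subunit RNA, gave 7.03, 6.84 and 6.59 in combination mice, 6.96, 7.17 and 6.85 in anti-CD27 mice and 8.23, 8.17 and 9.36 in anti-PD-1/L1 mice. Snora21 fell in both, with differences of -1.77 ± 0.29 in combination mice and -1.60 ± 0.29 in anti-CD27 mice. Of the 5 H/ACA rows that did not pass in the combination comparison, Snora19 at 2.55 in combination mice and 2.49 in anti-PD-1/L1 mice had the highest difference, 0.06, and was above background on no array.

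Of the 6 scaRNAs, 4 fell in each comparison with anti-PD-1/L1, against 53.3% of all rows for combination and 53.6% for anti-CD27. The medians of the 6 were -1.50 for combination and -1.04 for anti-CD27. The exceptions were Scarna17 and Scarna9, of which Scarna9 was above background on no array. Scarna6 gave 7.43, 6.83 and 7.12 in combination mice, 7.07, 7.59 and 7.33 in anti-CD27 mice and 9.17, 8.51 and 9.65 in anti-PD-1/L1 mice. Scarna6 fell in both, with differences of -1.99 ± 0.28 in combination mice and -1.78 ± 0.28 in anti-CD27 mice. Scarna10, a guide that acts on the U5 snRNA, gave 7.29, 7.32 and 7.34 in combination mice, 7.67, 7.87 and 7.73 in anti-CD27 mice and 9.15, 8.73 and 9.54 in anti-PD-1/L1 mice. It fell, with differences of -1.83 ± 0.17 in combination mice and -1.39 ± 0.17 in anti-CD27 mice. For both, all 6 arrays of the anti-CD27 regimens were below the lowest anti-PD-1/L1 array. Scarna8, above background on no array, also fell, with differences of -1.85 ± 0.32 in combination mice and -1.74 ± 0.32 in anti-CD27 mice. Scarna2 fell as well, with differences of -1.17 ± 0.09 in combination mice (adjusted p = 8.55e-06) and -0.70 ± 0.09 in anti-CD27 mice (adjusted p = 0.00013).

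All 16 rows of spliceosomal snRNAs fell in both comparisons with anti-PD-1/L1, with medians of -1.48 for combination and -1.45 for anti-CD27. The U2 RNA, which pairs with the intron's branch site, had the largest falls. The first row of Rnu2-10 gave 7.56, 7.31 and 7.16 in combination mice, 7.40, 7.76 and 7.19 in anti-CD27 mice and 9.23, 9.39 and 10.13 in anti-PD-1/L1 mice, with differences of -2.24 ± 0.24 in combination mice (adjusted p = 5.66e-05) and -2.13 ± 0.24 in anti-CD27 mice (adjusted p = 8.36e-05). U1, which recognises the start of introns, was brighter: the first row of Rnu1a1 gave 10.83, 10.68 and 10.85 in combination mice, 10.69, 11.03 and 10.64 in anti-CD27 mice and 11.60, 11.44 and 12.19 in anti-PD-1/L1 mice. This U1 row fell, with differences of -0.96 ± 0.19 in combination mice and -0.96 ± 0.19 in anti-CD27 mice. The rows of Rnu1b1, Rnu1b2 and Rnu1b6 fell, with differences between -1.51 and -1.15 in combination mice, the -1.15 being that of a row of Rnu1b2 above background on no array. These U1 copies are near-identical and 2 of their rows share all values.

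U6, the catalytic snRNA, fell in both of its rows. Its brighter row gave 9.54, 9.30 and 9.44 in combination mice, 9.08, 9.56 and 9.31 in anti-CD27 mice and 10.67, 10.58 and 10.90 in anti-PD-1/L1 mice, with differences of -1.29 ± 0.13 in combination mice and -1.40 ± 0.13 in anti-CD27 mice. U12 and U11, the minor spliceosome's counterparts of U2 and U1, differed in size. Rnu12 fell, with differences of -1.79 ± 0.19 in combination mice and -1.63 ± 0.19 in anti-CD27 mice, and was above background on 1 of 3 anti-PD-1/L1 arrays and on no other array. Its anti-PD-1/L1 mean of 8.16 lay below that group's mean background limit of 8.27. The mean limit itself differed by -1.44 for combination minus anti-PD-1/L1 and by -1.34 for anti-CD27 minus anti-PD-1/L1. No lower limit on the fold is given for Rnu12 for this reason. Rnu11 gave 9.47, 9.61 and 9.56 in combination mice, 9.46, 9.61 and 9.26 in anti-CD27 mice and 10.18, 9.66 and 10.45 in anti-PD-1/L1 mice. It fell, with differences of -0.55 ± 0.18 in combination mice (adjusted p = 0.0217) and -0.65 ± 0.18 in anti-CD27 mice (adjusted p = 0.0105). The combination call on Rnu11 was lost without combination replicate 1 (adjusted p = 0.0661), combination replicate 3 (0.0511), anti-PD-1/L1 replicate 1 (0.0625) or anti-PD-1/L1 replicate 3 (0.0672). The U5 row Rnu5g, above background on no array, fell, with differences of -1.77 ± 0.20 in combination mice and -1.67 ± 0.20 in anti-CD27 mice.

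Y RNAs and 5S RNA, both polymerase III products, fell in all 4 and all 8 of their rows, with medians of -2.04 and -2.23 for combination minus anti-PD-1/L1 and of -1.84 and -2.04 for anti-CD27 minus anti-PD-1/L1. Rny3, with the same values in 2 rows, gave 7.79, 7.31 and 7.59 in combination mice, 7.80, 8.20 and 7.78 in anti-CD27 mice and 9.27, 9.46 and 9.94 in anti-PD-1/L1 mice. All anti-PD-1/L1 arrays were above the rest, and Rny3 fell, with differences of -2.00 ± 0.19 in combination mice (adjusted p = 3.46e-05) and -1.63 ± 0.19 in anti-CD27 mice (adjusted p = 0.000114). The 2 rows of Rny1, above background on no array, fell, with differences of -2.12 and -2.08 in combination mice and -2.06 and -2.10 in anti-CD27 mice. The 5S rows hold 2 signals, of which the one in 7 rows gave 8.83, 8.44 and 9.15 in combination mice, 8.96, 9.35 and 8.69 in anti-CD27 mice and 10.81, 10.53 and 11.78 in anti-PD-1/L1 mice. The signal fell, with differences of -2.23 ± 0.32 in combination mice (adjusted p = 0.000301) and -2.04 ± 0.32 in anti-CD27 mice (adjusted p = 0.000545). For 5S RNA, anti-PD-1/L1 replicate 3 lay above the other 2 arrays of its group, and no array overlapped between anti-PD-1/L1 and the rest.

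7SL and 7SK RNA lay near the top of the arrays' intensity scale and had small falls. 7SL RNA, the scaffold of the signal recognition particle, gave 13.03, 12.99 and 12.93 in combination mice, 13.09, 13.09 and 13.04 in anti-CD27 mice and 13.36, 13.32 and 13.38 in anti-PD-1/L1 mice in 2 rows with identical values. It fell without overlap, with differences of -0.37 ± 0.05 in combination mice (adjusted p = 0.000176) and -0.28 ± 0.05 in anti-CD27 mice (adjusted p = 0.000934). The first row of 7SK RNA gave 12.79, 12.75 and 12.74 in combination mice, 12.90, 12.89 and 12.91 in anti-CD27 mice and 13.08, 13.09 and 12.98 in anti-PD-1/L1 mice. This row fell, with differences of -0.29 ± 0.05 in combination mice (adjusted p = 0.000781) and -0.15 ± 0.05 in anti-CD27 mice (adjusted p = 0.026), while the second fell by 0.24 in combination mice and differed by -0.11 in anti-CD27 mice (adjusted p = 0.067). The brightest row of any array lay between 13.48 and 13.59, and the phage control, at 12.65 in combination mice, 12.62 in anti-CD27 mice and 12.96 in anti-PD-1/L1 mice, differed by -0.30 for combination minus anti-PD-1/L1 and -0.34 for anti-CD27 minus anti-PD-1/L1. Under quantile normalisation the first 7SK row differed by -0.07 for combination minus anti-PD-1/L1 and was not called (adjusted p = 0.269).

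Rpph1 and Rmrp, the RNAs of RNase P and of RNase MRP, an enzyme of ribosomal RNA processing, sat below that top. Rpph1 gave 10.65, 10.58 and 10.56 in combination mice, 10.98, 11.0 and 10.84 in anti-CD27 mice and 12.04, 12.02 and 12.36 in anti-PD-1/L1 mice. The 3 groups did not overlap, and it fell, with differences of -1.55 ± 0.09 in combination mice (adjusted p = 2.81e-06) and -1.20 ± 0.09 in anti-CD27 mice (adjusted p = 1.35e-05). The bacterial bioD control set differed by -0.79 in combination mice and -0.76 in anti-CD27 mice. All 8 bacterial and phage sets spanned -2.00 to -0.30 and -2.00 to -0.34, and Rpph1 lay inside both ranges. Rmrp gave 11.21, 11.20 and 11.12 in combination mice, 11.23, 11.54 and 11.32 in anti-CD27 mice and 11.88, 11.48 and 11.97 in anti-PD-1/L1 mice. Rmrp fell in both, with differences of -0.60 ± 0.13 in combination mice (adjusted p = 0.00311) and -0.41 ± 0.13 in anti-CD27 mice (adjusted p = 0.02) and overlap of anti-CD27 replicate 2 and anti-PD-1/L1 replicate 2. Terc, the template of telomerase, was above background on no array, and fell, with differences of -0.94 ± 0.07 in combination mice (adjusted p = 7.85e-06) and -0.86 ± 0.07 in anti-CD27 mice (adjusted p = 1.42e-05).

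**Figure D3:**
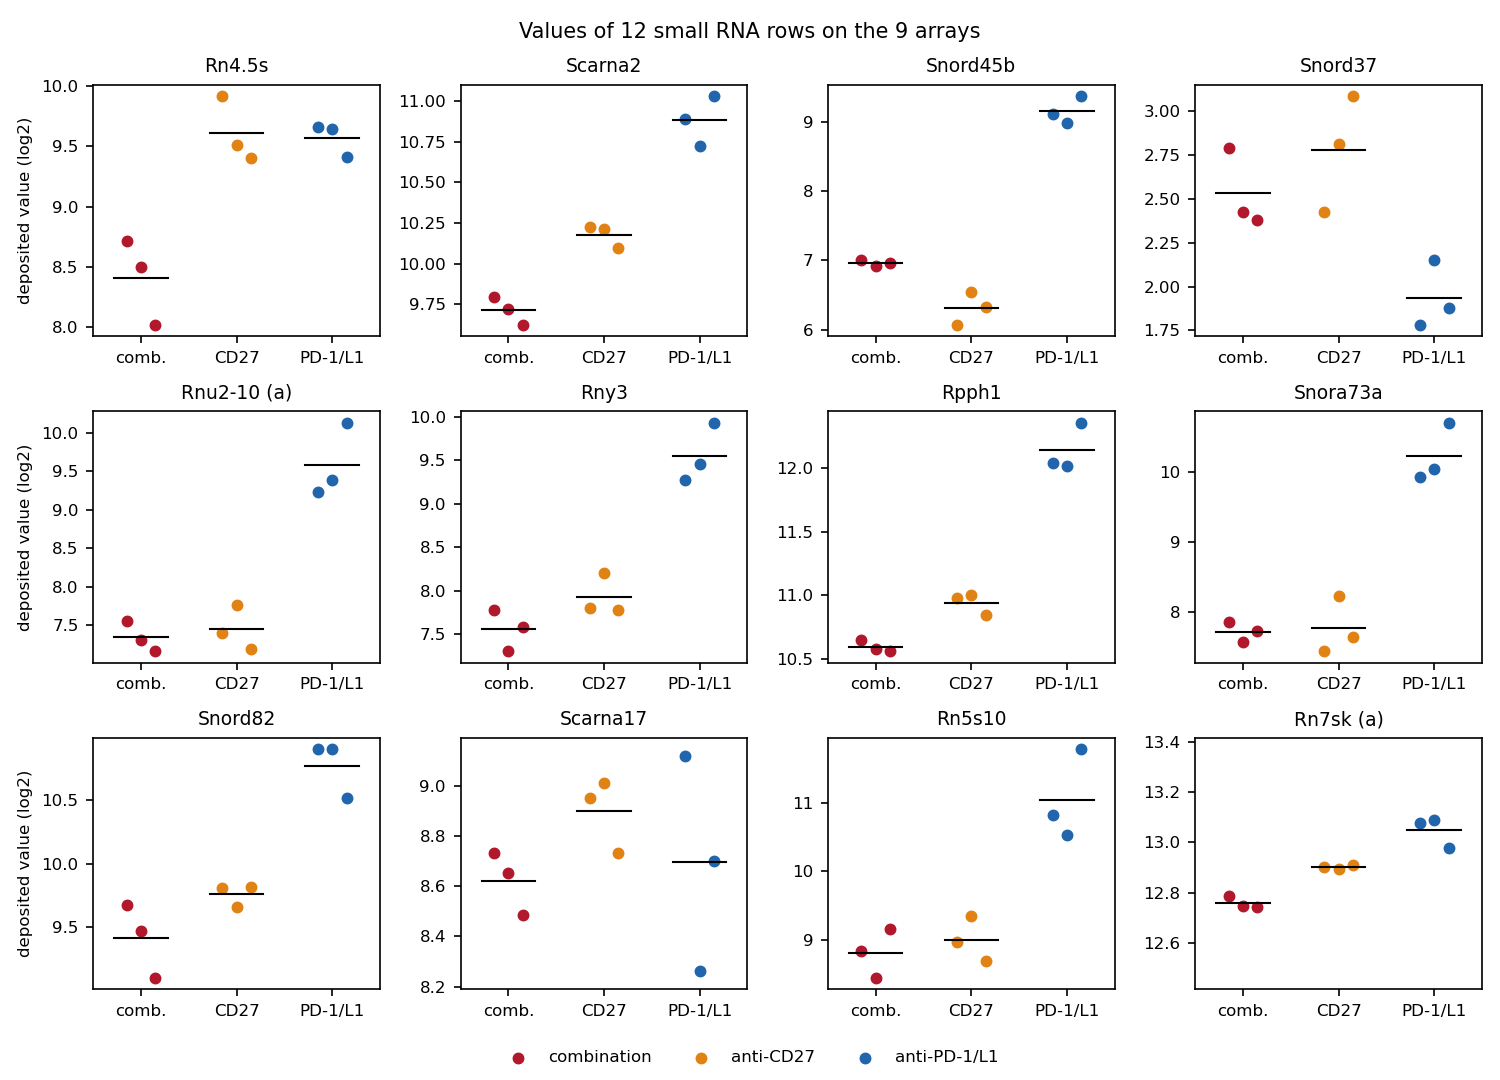
Deposited log2 values of 12 small RNA rows on each of the 9 arrays (points) with the group mean (line), combination at the left, anti-CD27 in the middle and anti-PD-1/L1 at the right; each panel has its own vertical range. Rn4.5s is low on the 3 combination arrays alone, Snord37 is low in anti-PD-1/L1 mice, Scarna17 overlaps in all groups, and the other rows are highest in anti-PD-1/L1 mice.

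Small RNAs that lie within other genes mostly had lower differences than those genes. In the RefSeq annotation, 29 snoRNAs and scaRNAs lay inside the start-to-end interval of 27 genes, called hosts here, for which both had a row of their own. Strand and position in an intron or exon were not checked. For combination minus anti-PD-1/L1, 19 of these 29 small RNAs fell, against 53.3% of all rows, and 1 rose (median -1.03), while 19 of the 27 hosts rose and 5 fell (median 0.89). The small RNA fell and the host rose in 12 pairs, both fell in 4, and the small RNA had the lower difference in 27 of 29. For anti-CD27 minus anti-PD-1/L1, 17 small RNAs fell, against 53.6% of all rows, and 2 rose, against 17.1% (median -0.79). Among the hosts 19 rose and 5 fell (median 0.85), where 54.9% of rows above background rose and 25.3% fell. The small RNA was again the lower in 27 pairs. The mean of the positive control sets differed by 1.06 for combination and 0.95 for anti-CD27, each minus anti-PD-1/L1. The part of these wider shifts in the pairs was not tested. For combination minus anti-CD27 limma called no small RNA of the 29 (5 had an unadjusted p under 0.05, beside 2984 of all 31089 rows). In that comparison 1 host rose, against 1.24% of all rows, with medians of -0.19 for the small RNAs and 0.06 for the hosts.

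The pairs given here were picked after their values were seen, and several of their hosts act in ribosome production. Snord82 in the nucleolin gene Ncl differed by -1.36 ± 0.15 (SE) for combination minus anti-PD-1/L1, and Ncl by 3.09 ± 0.10. Snora75, in the same gene and above background on no array, differed by -0.17 ± 0.22 and was not called (adjusted p = 0.506). The largest rise of a host was that of the translation initiation factor gene Eif3a, 4.05 ± 0.07, whose Snora19 differed by 0.06 ± 0.06 and was not called. Nop58, which encodes a core protein of C/D box particles, rose by 2.51 ± 0.11 in the same comparison, while its intronic Snord70 had a difference of -0.89 ± 0.26 and Snord11 of -1.73 ± 0.42, both above background on no array. Scarna10 lies in the condensin gene Ncapd2, which rose by 2.75 ± 0.20 (adjusted p = 8.49e-06) while Scarna10 fell. Snord37 was the 1 small RNA of these pairs that rose with its host in the combination comparison, with Eef2, the elongation factor of translation, at 1.81 ± 0.23. The lowest value was that of Snora69, whose host Rpl39 fell by 0.42.

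**Figure D4:**
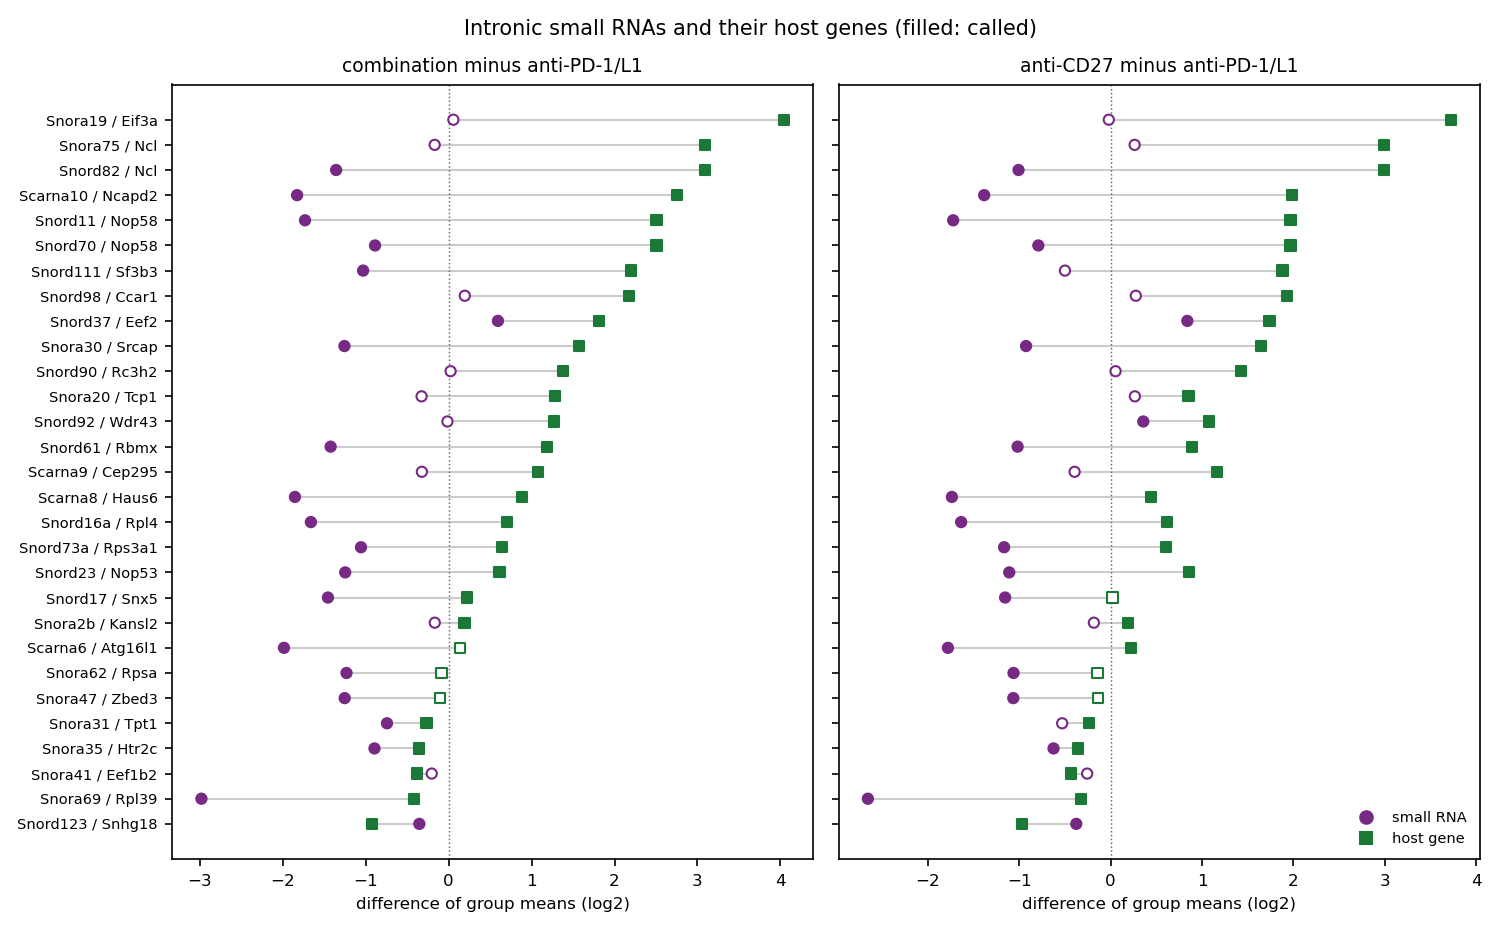
Difference of group means (log2) of 29 small RNAs (circles) and the host genes whose interval holds them (squares) for combination and for anti-CD27, each minus anti-PD-1/L1. Pairs are ordered by the host's difference for the combination, and filled symbols passed the test. Strand and intron position were not checked. The small RNA lies left of its host in 27 of 29 pairs in each panel.

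Genes for protein partners of these RNAs were read from lists by particle, and those lists were drawn up with earlier results of these data known. For combination minus anti-PD-1/L1, 18.9% of all rows rose and 53.3% fell, and for anti-CD27 minus anti-PD-1/L1 17.1% rose and 53.6% fell. Among the 3335 rows above background on all 3 arrays of a group, 60.4% rose and 23.6% fell in the first, and 54.9% and 25.3% in the second. The counts by list stand beside these shares and were not tested against them. Of the 8 measured C/D box particle and assembly genes, 7 rose and 1 fell for combination minus anti-PD-1/L1 (median 0.64), and 6 rose and 1 fell for anti-CD27 minus anti-PD-1/L1 (median 0.48). Nop58 and the nucleolar chaperone Nolc1 had the largest rises, 2.51 ± 0.11 and 1.77 ± 0.04 for the combination. Of 6 H/ACA genes, 2 rose and 1 fell (median -0.02), led by Naf1, an assembly factor, at 2.53 ± 0.18, and Dkc1, the pseudouridine synthase, at 2.38 ± 0.07. For anti-CD27, 2 rose and 3 fell.

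Of 15 measured Sm and SMN complex genes, 8 rose and 3 fell in combination mice against anti-PD-1/L1 mice, and 5 rose and 4 fell in anti-CD27 mice. Gemin5, which binds snRNAs for assembly, rose by 2.03 ± 0.08 in combination mice. Of 16 genes for snRNP-specific and LSm proteins, 7 rose and 4 fell, and 6 rose and 5 fell in anti-CD27 mice. Prpf8, the core protein of the U5 particle, rose by 3.63 ± 0.06 in combination mice and 3.61 ± 0.06 in anti-CD27 mice. Ssb, the La protein that binds the ends of new polymerase III transcripts, rose by 1.32 ± 0.16 in combination mice and 1.02 ± 0.16 in anti-CD27 mice, and the row of Ro60 has 1 and the same value on all 9 arrays, so it shows no difference.

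RNA polymerase III and its factors rose in 17 of 26 measured genes and fell in 1 for combination minus anti-PD-1/L1 (median 0.50). They rose in 17 and fell in 2 for anti-CD27 minus anti-PD-1/L1 (median 0.41), beside falls in most rows of the RNAs it makes. Among rows above background on all 3 arrays of a group, 60.4% rose for the combination and 54.9% for anti-CD27. Bdp1, a subunit of TFIIIB, and Polr3b, a large polymerase subunit, rose by 2.34 ± 0.09 and 2.31 ± 0.07 in combination mice. The 11 RNase P and MRP protein genes were divided, 4 rising and 6 falling in combination mice, with Pop4 at 1.00 ± 0.15 and Pop5 at -1.15 ± 0.10. Of the 4 genes of 7SK partners, 2 rose and 2 fell in both comparisons, led by Larp7 at 3.04 ± 0.11 in combination mice. Of 5 signal recognition particle genes, 2 rose and 2 fell in both, with Srp72 at 2.81 ± 0.17 and Srp9 at -0.43 ± 0.07. Of 3 Cajal body and telomerase genes, Tgs1, which methylates the cap of snRNAs, rose by 1.75 ± 0.10, and Tert fell by 0.17 in combination mice.

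Between combination and anti-CD27 mice, a few of these partners passed the test, where 1.24% of all rows rose and 0.505% fell. Among rows above background on all 3 arrays of a group, 6.21% rose and 1.68% fell. Nop58 rose by 0.54 ± 0.11 (adjusted p = 0.0495), Nolc1 by 0.35 ± 0.04 (adjusted p = 0.00661) and Dkc1 by 0.49 ± 0.07 (adjusted p = 0.0149). Gemin5 rose by 0.42 ± 0.08 and Srp68, a signal recognition particle subunit, by 0.34 ± 0.06 (adjusted p = 0.0353 and 0.0291). Snhg5, a noncoding host of snoRNAs, fell by 0.38 (adjusted p = 0.0344). limma called none of the 26 polymerase III genes (3 had an unadjusted p under 0.05), 16 snRNP-specific and LSm genes (5), 11 RNase P and MRP genes (3) or 4 genes of 7SK partners (1) in this comparison. Of all 31089 rows, 2984 had an unadjusted limma p under 0.05.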

How the data were processed

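RNA from sorted cells of 9 mice was hybridised to Affymetrix whole-transcript mouse arrays. The deposited log2 values came from the RMA method of the oligo package 1.38.0, per the submitters' processing notes; whether replicates stem from 1 experiment is not given in the sources used here, so p-values measure the spread between these mice. The genome build is not given there either. The table has 72688 rows: 6732 control probe sets and 65956 transcript rows, of which 31089 name 1 gene, 1661 several and 33206 none in the platform annotation. All 118 members matched the RefSeq gene table of assembly GRCm38.p6, which gave names, types and host genes only. No sequence of a member was in the tables used.

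From these values, limma 3.58.1 in R 4.3.3 (lmFit and eBayes, two-sided) fitted the 3 group means to all 31089 rows over all 9 arrays, with Benjamini-Hochberg adjustment over all rows and a threshold of 0.05. The fit was tested on simulated data. Control probe sets were compared by exact permutation over arrays. Because RMA summaries can tie, 1698 rows had the same value on all 3 combination arrays, 2631 on the anti-CD27 arrays and 218 on the anti-PD-1/L1 arrays, none of them a member. Members, classes and gene lists were chosen with earlier results of these data known. Named members were those of the small classes, and per comparison the 10 largest called rises and falls among snoRNAs and scaRNAs without overlap, the row with the largest difference in a class without a call, and up to 3 called genes of each list; others are said to be picked. Alternatives were other normalisation, control means as covariates, row filters, fewer arrays, array weights and the replicate block.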

Additional observations from a re-analysis of the deposited data

How the results depend on the processing

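The 3 control means do not overlap between anti-PD-1/L1 and the other groups, so a fit with 1 of them as a covariate cannot separate control level from treatment. Called counts in both comparisons with anti-PD-1/L1 were then 0 higher and 0 lower with each of the 3 (over all rows, 0 called with background or bacterial and phage controls, where 3884 and 6151 rows had an unadjusted p under 0.05 for the combination and 3888 and 5689 for anti-CD27). With positive controls as covariate, 885 of all rows stayed called higher and 990 lower for the combination, and 1085 higher and 1326 lower for anti-CD27. Directions that turned in those fits, as fitted log2 differences of 1 row per RNA, were these. With the mean of the background controls as covariate, combination minus anti-PD-1/L1 became -0.87 for Snord37, 0.018 for Rnu6, 0.45 for Scarna10, 0.64 for Rmrp, 0.83 for Rny3, 0.87 for Snora73a, 0.88 for Rnu5g, 1.24 for Rnu3a, 1.25 for Rnu1b6, 1.26 for Scarna6, 1.33 for Rnu1b2, 1.36 for Snora73b, 1.48 for Rnu2-10, 1.51 for Rnu12, 1.75 for Scarna8, 1.98 for Rnu11, 2.06 for Rnu1a1, 2.22 for Snora21, 2.64 for Snora69, 2.86 for Rnu3b4, 2.88 for Rnu3b2, 3.31 for Rn5s, 3.61 for Rn5s17 and 3.69 for Snord118. In the same fit, anti-CD27 minus anti-PD-1/L1 became -0.92 for Rn4.5s, -0.59 for Snord37, -0.36 for Snord92, 0.84 for Snora73a, 1.33 for Snora73b, 1.39 for Scarna6, 1.78 for Scarna8, 2.07 for Snord11, 2.31 for Snora21, 2.71 for Snord16a, 2.83 for Snora69 and 3.53 for Snord118. With the mean of the bacterial and phage controls as covariate, combination minus anti-PD-1/L1 became 0.014 for Rny1, 0.026 for Rn5s17, 0.029 for Snora21, 0.030 for Rnu1b6, 0.064 for Rnu5g, 0.28 for Rnu3b4, 0.28 for Rnu3b2, 0.41 for Rnu1a1, 0.87 for Rmrp, 0.89 for Rnu11, 1.27 for Snord13, 1.34 for Scarna8 and 1.95 for Scarna6. In the same fit, anti-CD27 minus anti-PD-1/L1 became 0.21 for Snora21, 1.28 for Snord16a, 1.46 for Scarna8, 2.16 for Scarna6 and 2.79 for Snord11. With the mean of the positive controls as covariate, combination minus anti-PD-1/L1 became 0.0026 for Snora73b, 0.15 for Rn5s, 0.22 for Rn5s17, 0.27 for Rnu3a, 0.31 for Rnu1a1, 0.43 for Snord118, 0.57 for Snora21, 0.78 for Rnu3b2, 0.79 for Rnu3b4 and 1.80 for Snora69. In the same fit, anti-CD27 minus anti-PD-1/L1 became -0.92 for Rn4.5s, -0.60 for Snord92, 0.16 for Snord118, 0.51 for Snora21 and 1.64 for Snora69. In the same fit, combination minus anti-CD27 became 0.055 for Rn5s10. Rn4.5s for anti-CD27 minus anti-PD-1/L1, not called, ranged from -0.12 to 0.14 as 1 array was left out, and turned negative without anti-CD27 replicate 1 (-0.12) or anti-PD-1/L1 replicate 3 (-0.04).

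Counts of small RNA rows called otherwise moved as follows. For combination minus anti-CD27, the 1 higher became 0 with bacterial and phage controls (1.02% of all rows higher) or positive controls (1.26%) as covariate. It also became 0 with all transcript rows (0.44%) and with the replicate block (0.865%). The 2 lower became 1 with positive controls as covariate (0.865% of all rows lower), all transcript rows (0.212%) or the replicate block (0.341%). They became 6 with only the 6 arrays compared (1.37% of all rows lower) and 11 with array weights per group (1.95% of all rows lower). Leaving out 1 array gave 0 to 1 higher and 0 to 3 lower, against 0.431% to 3.01% of all rows higher and 0.119% to 0.894% lower. For combination minus anti-PD-1/L1, the 1 higher became 4 under quantile normalisation and 0 with array weights, with the rows of higher mean or with rows above background in a group. The last of these kept 62 members, 60 of them lower, against 23.6% of all 3335 rows kept. Leaving out 1 array gave 0 to 2 higher and 90 to 103 lower, against 47.1% to 53.4% of all rows lower. For anti-CD27 minus anti-PD-1/L1, the 2 higher became 6 under quantile normalisation, 1 with array weights and 0 with the rows of higher mean or above background in a group. In the last of these 55 of 62 were lower, against 25.3% of all 3335 rows kept. Leaving out 1 array gave 1 to 3 higher and 85 to 98 lower, against 46.5% to 53.4% of all rows lower. The split over all rows moved under quantile normalisation to 23.2% higher and 29.8% lower for combination minus anti-PD-1/L1, against 18.9% and 53.3%, and to 21.1% and 30.6% for anti-CD27 minus anti-PD-1/L1, against 17.1% and 53.6%. Over all rows, combination minus anti-CD27 calls were 544 with all 9 arrays, 1640 with the 6 compared, 2191 with array weights and 375 with the replicate block. Replicate numbers are shared by the groups, but the deviations of same-numbered arrays correlated between -0.21 and 0.17 over 9 pairs, with 1 pair over 0.1, so the numbers were not taken as pairs. With the replicate block the adjusted p was 0.103 for Snord45b and 0.0957 for Scarna2 in combination minus anti-CD27, and Rn4.5s kept its call. Of the 104 signals, 48 never passed the background limit.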

Other observations

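Other small RNA rows, outside the symbols used here, differed by type: snRNA rows fell more often than all rows, and snoRNA rows about as often. RefSeq types 899 further rows as snRNA and 893 as snoRNA, mostly under provisional Gm symbols. Of the snRNA rows, 80.6% fell for combination minus anti-PD-1/L1 and 81.5% for anti-CD27 minus anti-PD-1/L1 (medians -0.81 and -0.84). Of the snoRNA rows, 56.9% and 53.3% fell (medians -0.33 and -0.28), close to the 53.3% and 53.6% of all rows (median -0.26 in both). For combination minus anti-CD27, 1 of the snRNA rows was called at an adjusted p under 0.05.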
